A study of Mus musculus with 8 samples.

Results

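The genes described are 10 members of the Notch signalling pathway: the receptors Notch1, Notch2 and Notch3, the ligands Jag1 and Jag2, the DNA-binding factor Rbpj, and the target genes Hes1, Hey1, Hey2 and Heyl. They were chosen by name, out of 21631 protein-coding genes, and were followed in peaks of accessible chromatin that lay in the gene body or within 50 kb on either side. Overlapping intervals of the 8 libraries were joined into regions, which gave 124 regions around these 10 genes out of 98245 in the genome. Granulosa cells, which enclose and nourish the egg cell inside a follicle, were collected by puncture of the ovaries of mice aged 21 days and profiled by ATAC-seq, in which the transposase Tn5 cuts and tags open DNA. All mice received 5 IU of eCG (also called PMSG), a hormone that makes follicles grow. The LH experiment, in wild-type mice of strain CBA x C57BL/6 F1, had 2 libraries titled hCG and 2 titled PMSG. According to the protocol, mice were killed 46 h after eCG or were then given 5 IU of hCG, which stands in for the ovulatory surge of luteinising hormone (LH), and killed 6 h later. The PR experiment, in strain C.129S7(B6)-Pgrtm1Bwo/OmcJ, compared 2 libraries of wild-type (WT) mice with 2 of mice lacking Pgr, the progesterone receptor gene (KO), all after hCG. Each library pooled 2 to 3 mice. The time tags do not go with the titles: hCG libraries are tagged 0 h after hCG and PMSG libraries 6 h. The source names of these 4 libraries go with the titles, and "hCG" and "PMSG" here mean the titles. The PR libraries are tagged 6 h, although their source name is pre-ovulatory cells.

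Notch receptors are cell-surface proteins that are activated by ligands on a neighbouring cell. Ligand binding leads to cleavage of the receptor, and its intracellular part enters the nucleus, joins the DNA-binding protein RBPJ and switches on genes such as those of the HES and HEY repressors. In the ovary the pathway is known for signalling between the oocyte, which makes jagged ligands, and granulosa cells, which carry Notch receptors, and for its part in blood vessels.

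The lists held between 55654 and 84313 intervals per library and covered 29.8 to 43.9 Mb. The WT lists were the longest and the list of KO 2 the shortest, and the hCG lists were longer than the PMSG lists. For that reason results are given for all peaks and also for the best 55654 intervals of every library by fold, called the same number of peaks or equal list length. Read numbers were not used here, so the depth behind a peak is unknown. At Pgr itself, both KO libraries had an interval that ended at chr9:8901045, with widths of 1277 and 1270 bp, whereas the other 6 libraries had 1 interval of 1939 to 2301 bp reaching beyond it. All 9 granulosa markers, among them Foxl2, Fshr and Cyp19a1, had a peak in all 8 libraries within 1 kb of their start or, for Amh, Gata4 and Hsd17b1 with no listed start, of either gene end. Of markers of other cells, where Cdh5, Myh11, Pdgfrb, Agtr1a, Gdf9, Pecam1, Adgre1 and Cyp17a1 were likewise read at either end, 2 of 6 endothelial genes (Cdh5 and Kdr), 4 of 5 pericyte or smooth muscle genes, 2 of 4 theca genes and 1 of 4 oocyte genes (Gdf9) did so. No library had one at the endothelial genes Pecam1, Tek, Tie1 and Emcn or at the immune genes Ptprc, Adgre1 and Cd3e, and the immune gene Cd68 had one in both hCG libraries only. An open start or gene end is not expression. In such bulk samples, fewer cells of a type and less signal per cell cannot be told apart.

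With all peaks, most regions around the Notch genes, though not most of those around the receptors, were held by every library. Of the 124 regions, 69 (55.6%) were held by all 8 libraries, against 37.9% of all regions in the genome. A region was called for 1 group when both its libraries had a peak there and both libraries of the other group lacked one. With 2 libraries against 2, an exact two-sided permutation test cannot give a p below 0.333, so no region was tested and counts are set beside the share over all regions. Among the 106 regions of the 4 LH libraries, 13 (12.3%) were hCG-only, where 17.6% of all regions and 17.1% of those within 50 kb of a protein-coding gene were. PMSG-only regions numbered 5 (4.72%), against 10.3% of all regions and 9.15% of those near such genes. All 4 LH libraries held 73 of the 106 regions (68.9%), against 50.4% in the genome. Both group-only shares around the Notch genes were thus below the background.

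Most hCG-only regions lay around the receptors. Of the 45 receptor regions in the LH libraries 11 were hCG-only and 1 PMSG-only, where all regions gave 17.6% and 10.3%. The 2 ligand genes had 1 hCG-only and no PMSG-only region among 17. Rbpj had 1 hCG-only and 2 PMSG-only among 8. The 4 HES and HEY genes had no hCG-only and 2 PMSG-only regions among 36. At equal list length, the best 55654 peaks of each library, the counts of hCG-only and PMSG-only regions were 8 and 2 of 39 for the receptors, 0 and 0 of 16 for the ligands, 1 and 2 of 7 for Rbpj, and 0 and 5 of 35 for the HES and HEY genes. Over both experiments, 32 of the 39 HES and HEY regions (82.1%) and 23 of the 57 receptor regions (40.4%) were held by all 8 libraries. Counted by gene, 5 of the 10 genes had 1 or more hCG-only regions and 4 had 1 or more PMSG-only regions, against 63.1% and 41.5% of all protein-coding genes with a region. The plot of group-only regions shows these counts gene by gene.

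**Figure D1:**
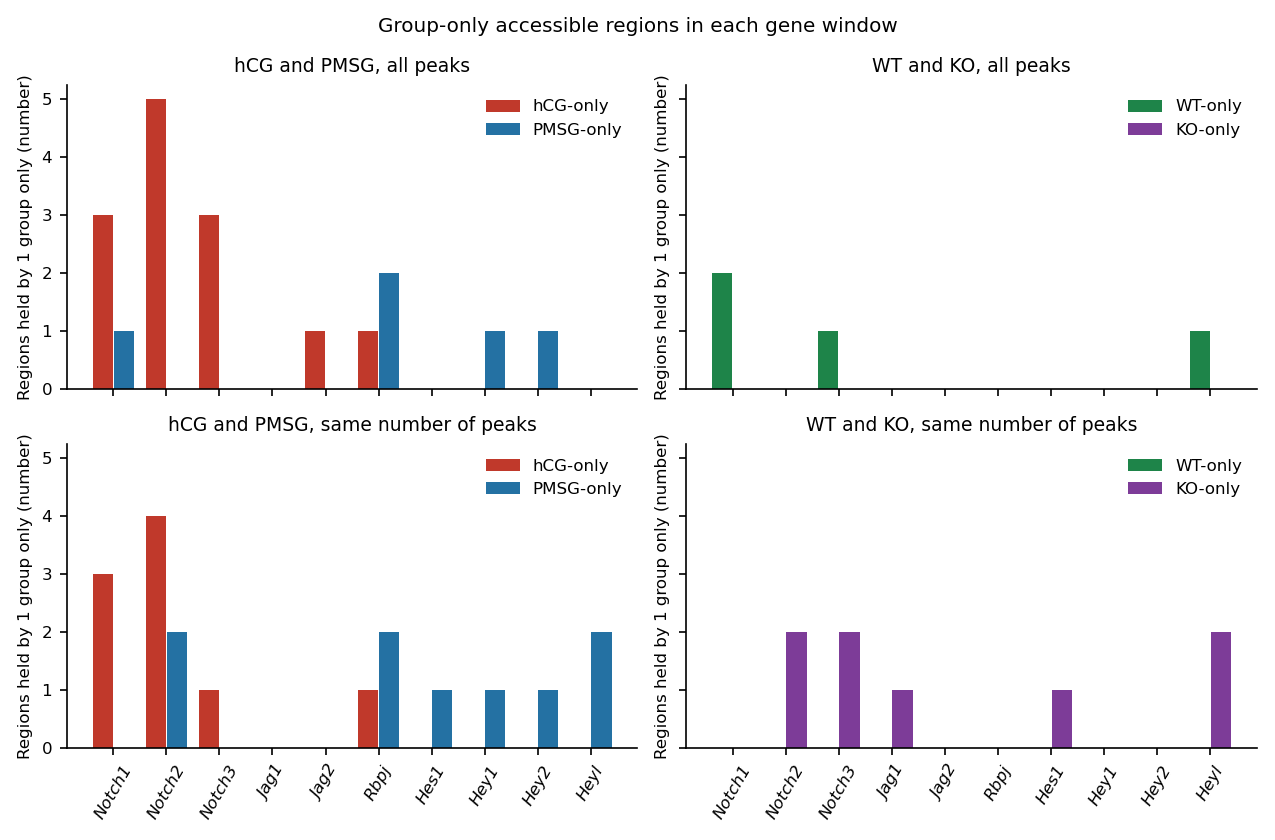
Number of regions (vertical axis) held by both libraries of 1 group and by neither library of the other, for each of the 10 Notch genes, with all peaks (upper panels) and with lists cut to 1 length (lower panels). The tallest bars with all peaks are those of hCG-only regions at Notch2 (5), Notch1 (3) and Notch3 (3), and the KO-only regions appear only in the lower right panel.

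The direction evened out once every library gave the same number of peaks, its best 55654. There were then 97 regions, of which 9 were hCG-only and 9 PMSG-only (9.28% each), against 15.3% and 13.4% of all regions, or 14.7% and 12.3% of those near protein-coding genes. All 4 LH lists held 58 of the 97 (59.8%, against 49.1% of all regions), and all 8 lists held 51 of 107 (47.7%, against 38.3%). Counted by gene, 4 of the 10 had an hCG-only and 6 a PMSG-only region, against 55.4% and 50% of genes. All 9 of these hCG-only regions were also hCG-only with all peaks. Of the 9 PMSG-only regions, 4 were PMSG-only with all peaks. The other 5 had a peak in at least 1 hCG library that ranked below the best 55654. With the best 20000 peaks of each library the direction did not even out, with 11 hCG-only and 2 PMSG-only regions around the 10 genes. The share over all regions was not counted at that length.

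Beyond presence, each peak was described by its percentile, the rank of its fold enrichment within its own list, where 100 is the best; the fold is the value of the authors' peak caller. All 10 genes had a peak within 1 kb of their start, or of either gene end for Hes1, Hey1 and Heyl, in at least 7 libraries. Of the 7 genes with a listed start, 6 had it in all 8 libraries, as did 61.6% of protein-coding genes with a listed start. The exception was Notch3, with no such peak in KO 2. The best-ranked start was that of Notch2, with percentiles between 67.7 and 90.5 over the 8 libraries. The lowest values were those of Notch3, between 10.6 and 40.5 in the 7 libraries that held it, and of the ends of Hes1. The best of 3 Hes1 intervals ranked between 16.3 and 34.0, and the interval over the lower-coordinate end itself between 4.56 and 22.4. Peaks at the starts of Jag1, Jag2 and Hey2 and at the ends of Heyl lay in the middle of their lists.

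Start peaks were wider in hCG and ranked higher in PMSG, as at most genes. At all 7 genes with a listed start both hCG libraries had a wider start peak than both PMSG libraries, as did 83.1% of genes with a start peak in all 4; the opposite held for 2.56% of genes. In lists of the same number of peaks, the start peak ranked higher in both PMSG libraries at 5 of the 7, namely Notch1, Notch2, Jag2, Rbpj and Hey2, against 62.2% of genes. It ranked higher in both hCG libraries at none of the 7, against 11.4%. The groups overlapped at Jag1, and Notch3 was not in all 4 lists. At Notch3 the interval at the start itself was 290 and 275 bp wide in hCG and 152 and 161 bp in PMSG. The summed widths within 1 kb were 834 and 1024 bp in hCG, because they add a separate region of the hCG libraries there, and 152 and 161 bp in PMSG. By that sum Notch3 was 2 or more times as wide in both hCG libraries, as were 1.46% of genes. Between WT and KO, the start peak was wider in both WT libraries at Notch2, Jag2 and Rbpj, against 31.4% of genes with one in all 4 PR libraries. It was wider in both KO libraries at none (5.11%). Notch3 could not be counted here, because KO 2 had no start peak. At Notch2 the gap was small, with 1123 and 1120 bp in WT and 1108 bp in both KO libraries. In lists of the same number of peaks the start peak ranked higher in both KO libraries at Jag1 (22.5% of genes) and in both WT libraries at none (4.59%). Heyl, whose sums join peaks at both gene ends, had at its lower-coordinate end an interval of 743 and 781 bp in hCG, 648 and 757 bp in PMSG, 784 and 804 bp in WT and 835 and 734 bp in KO, so that neither pair of groups was apart.

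**Figure D2:**
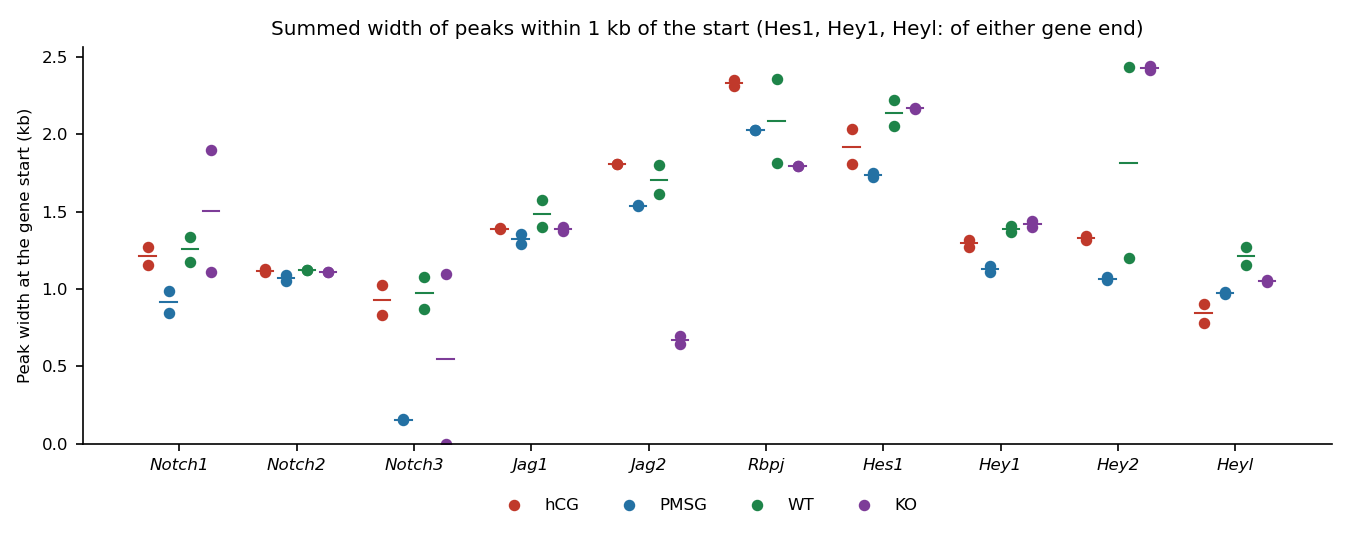
Summed width in kb (vertical axis) of the peaks within 1 kb of the start of each gene, or of either end for Hes1, Hey1 and Heyl, with 1 point per library and a bar at the mean of 2 libraries. The Jag2 points of the 2 KO libraries (696 and 643 bp) lie below those of all other libraries (1535 to 1808 bp), and the Notch3 point of KO 2 is at 0 because no peak was there.

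Notch1, a receptor gene on chromosome 2, had 15 regions, of which 3 were hCG-only. The best-ranked lay inside the gene at 9.12 kb after the start (chr2:26494480-26494930). Its widths were 404 and 446 bp in hCG and its percentiles 88.9 and 89.6, and neither PMSG library had a peak. All 4 PR libraries held it, at 68.8 and 77.9 in WT and 62.6 and 22.9 in KO, with 346, 364, 270 and 209 bp. It was thus a strong peak of both hCG lists that both PMSG lists lacked.

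A second hCG-only region lay before Notch1, at -28.2 kb from the start (chr2:26531742-26532352), with percentiles of 82.0 and 76.7 in hCG. All 4 PR libraries held it as well, at 94.1 and 86.9 in WT and 94.4 and 57.0 in KO. The third was in the neighbouring gene Sec16a (chr2:26418054-26418605), with percentiles of 64.3 and 79.9, and of the PR libraries only WT 2 held it, at 24.3. At -40.4 kb (chr2:26543834-26544649) a region that all libraries held ranked at 70.0 and 72.2 in hCG and at 21.8 and 18.7 in PMSG within lists of the same number of peaks, without overlap. The start peak of Notch1 itself ranked at 40.8 and 40.6 in hCG and at 63.6 and 44.4 in PMSG in the same lists. At -46.8 kb (chr2:26549940-26551220) the order was reversed, with percentiles over all peaks of 12.2 and 11.7 in hCG and 49.9 and 47.6 in PMSG. Regions of Notch1 thus moved both ways, with the 2 strong hCG-only regions at 9.12 and -28.2 kb and the region at -46.8 kb that ranked higher in PMSG. The start peak ranked higher in both PMSG libraries only in lists of the same number of peaks. With all peaks its percentiles were 49.7 and 46.9 in hCG and 65.1 and 47.3 in PMSG, which overlap.

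The single PMSG-only region at Notch1 was a weak peak in Sec16a (chr2:26410882-26411363), with percentiles of 2.21 and 5.20, and it was also WT-only, at 7.23 and 1.46. Another WT-only region lay at -9.41 kb (chr2:26513115-26513348), with percentiles of 29.2 and 42.8 and widths of 157 and 234 bp. Neither was called with the same number of peaks.

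Notch2, a receptor gene on chromosome 3, had the most regions of the 10 genes, 28, and 5 of them were hCG-only. The best-ranked lay inside the gene at 93.3 kb after the start (chr3:98106604-98107114), with percentiles of 78.1 in both hCG libraries and widths of 508 and 505 bp. All 4 PR libraries held it, at 62.5 and 58.5 in WT and at 35.2 and 29.4 in KO. In lists of the same number of peaks the WT percentiles were 46.1 and 37.2 and the KO percentiles 31.5 and 29.4, so WT ranked above KO by a small gap. The next were at -41.2 kb (chr3:97971872-97972727), at 56.5 and 49.96 in hCG and held by all 4 PR libraries, and at -47.3 kb in Gm5544 (chr3:97966062-97966318), at 36.7 and 59.8 in hCG and held by both WT libraries and KO 1. The other 2, at -13.4 and 81.1 kb, had percentiles of 2.98 to 22.4 in hCG.

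Within Notch2, regions that all 4 LH libraries held moved both ways in rank. At 43.1 kb after the start (chr3:98055821-98057462) the percentiles with the same number of peaks were 55.9 and 47.0 in hCG and 13.6 and 4.67 in PMSG, and the widths 971 and 885 bp in hCG and 400 and 383 bp in PMSG. The regions at 48.3 and 75.8 kb went the other way: with all peaks they ranked at 11.7 and 6.43, and at 11.7 and 5.88, in hCG, and at 44.7 and 55.4, and at 58.4 and 52.8, in PMSG. Both were PMSG-only with the same number of peaks. The start peak of Notch2 (chr3:98013126-98014265) was almost constant in width, between 1055 and 1127 bp over the 8 libraries.

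Notch3, a receptor gene on chromosome 17 that is known from vascular smooth muscle, had 14 regions, with 3 hCG-only regions that were all held by the 4 PR libraries. They lay at 58.1 kb after the start and beyond the end of the gene (chr17:32108462-32109136), with percentiles of 40.5 and 28.0, at 49.2 kb (chr17:32117165-32118311), with 12.1 and 11.3, and inside the gene at 1.03 kb (chr17:32165374-32166353), with 7.40 and 4.74. Only the first was still hCG-only with the same number of peaks. In the LH libraries the strongest Notch3 region lay inside the gene at 23.5 kb (chr17:32143081-32143735). Its percentiles were 93.2 and 89.9 in hCG, 97.0 and 97.3 in PMSG, 96.1 and 92.1 in WT and 97.6 and 81.1 in KO, with widths of 555 to 633 bp. In WT 2 and KO 2 a region at 75.3 kb (chr17:32091062-32092210) ranked above it, at 94.5 and 91.7. The pericyte and smooth muscle markers Cspg4 and Acta2 had a start peak in all 8 libraries, Myh11 and Pdgfrb had a peak at a gene end, Rgs5 had a start peak in hCG 2 and WT 1 alone, and their part in the Notch3 values was not tested.

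**Figure D3:**
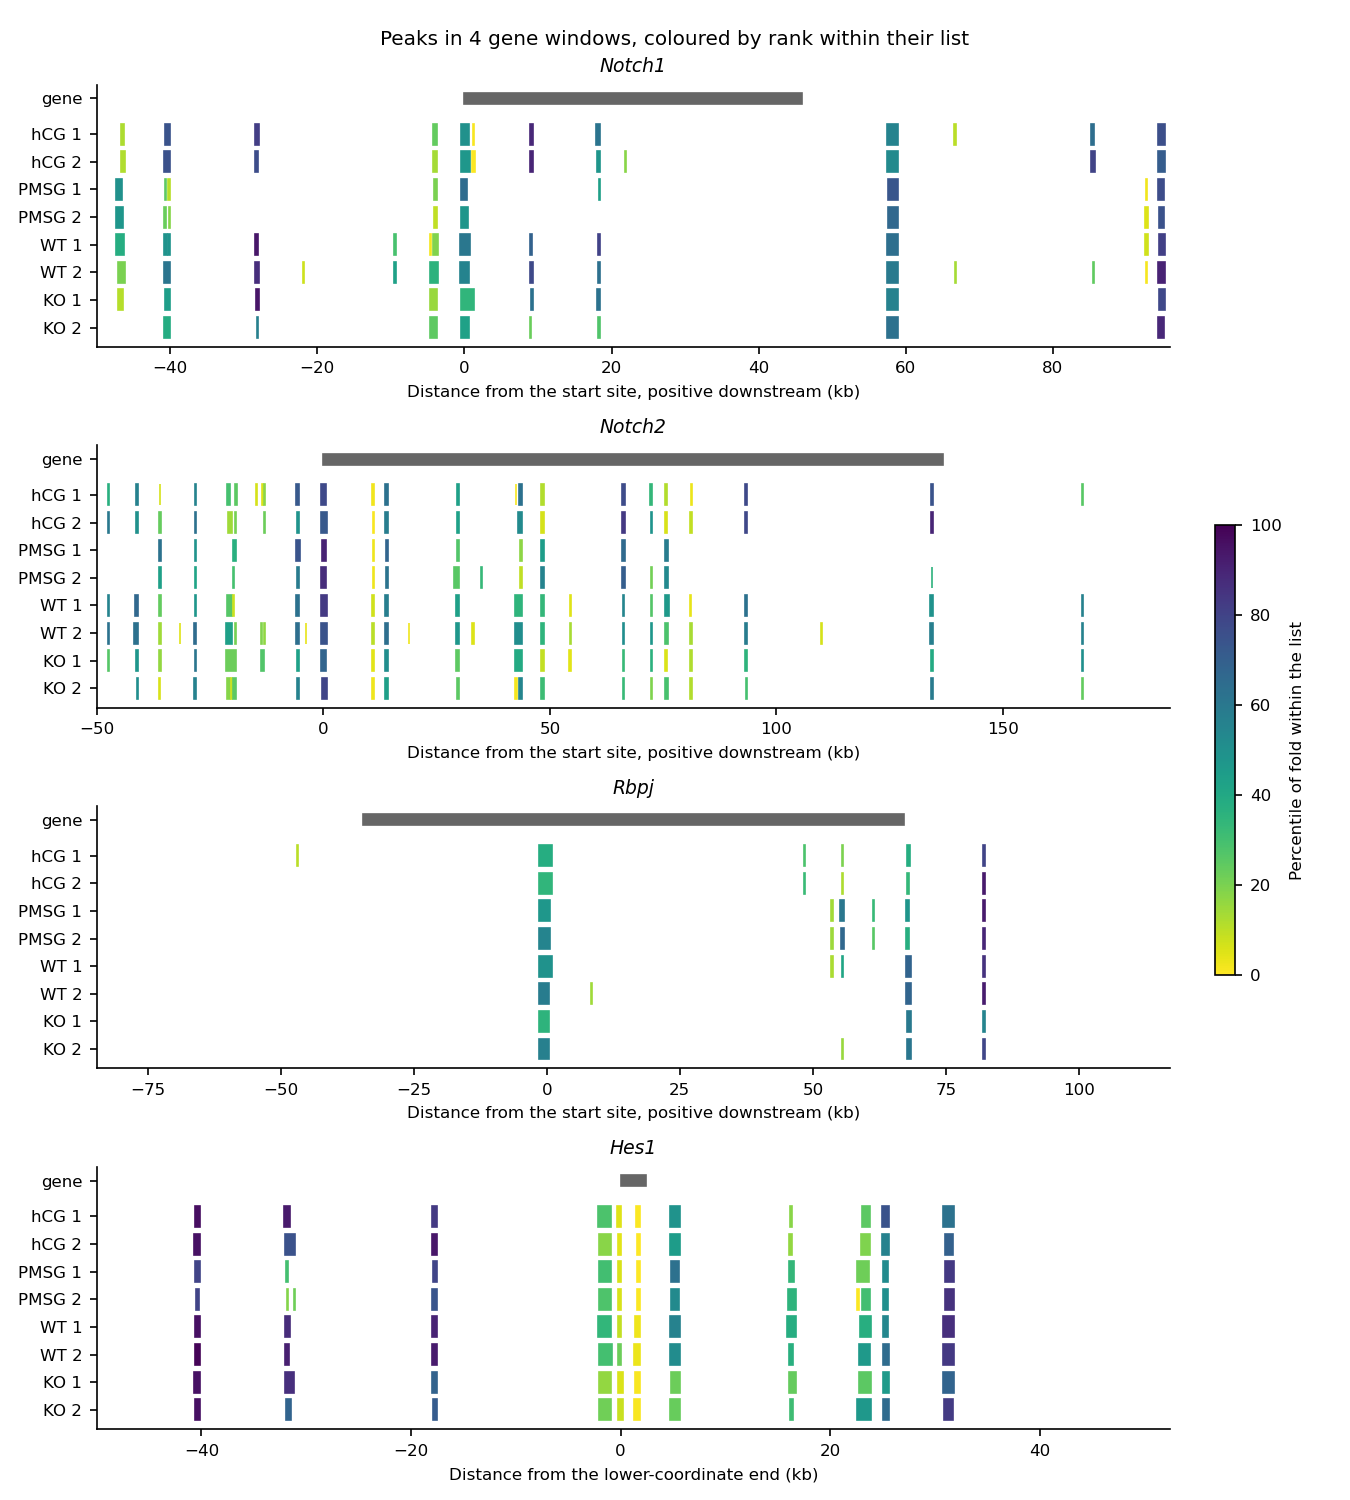
Peaks of the 8 libraries in the windows of Notch1, Notch2, Rbpj and Hes1, with distance from the start site in kb (for Hes1 from its lower-coordinate end) on the horizontal axis, 1 line per library and colour for the percentile of fold within the list. The Notch1 peaks at 9.12 and -28.2 kb are missing from both PMSG lines, the Rbpj peak at 55.4 kb is darkest in PMSG, and all 11 Hes1 regions appear in every line.

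Jag1, which encodes a ligand and lies on chromosome 2, had 6 regions and no group-only region in either experiment with all peaks. Its strongest region lay at 66.8 kb after the start, in the neighbouring gene Slx4ip (chr2:137049288-137050095). Within lists of the same number of peaks its percentiles were 98.2 and 93.6 in hCG and 41.8 and 63.1 in PMSG, without overlap. In the PR libraries they were 91.8 and 96.6 in WT and 97.7 and 72.2 in KO, which overlap. The region inside the gene at 32.6 kb (chr2:137083752-137084008) had percentiles of 71.6 and 77.7 in hCG with all peaks, no peak in PMSG 1 and 40.6 in PMSG 2. The start peak varied little: its widths were 1393 and 1385 bp in hCG, 1356 and 1294 bp in PMSG, 1575 and 1399 bp in WT and 1374 and 1400 bp in KO.

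Jag2, the other ligand gene, on chromosome 12, had 13 regions. All libraries held 8 of them, and 1 was hCG-only, a weak peak at 51.8 kb (chr12:112877588-112877832) with percentiles of 2.66 and 5.18. Its start peak was narrower in the KO libraries than in any other. The summed widths within 1 kb of the start were 1808 and 1806 bp in hCG, 1535 and 1540 bp in PMSG, 1799 and 1616 bp in WT and 696 and 643 bp in KO. In both KO libraries the interval began at chr12:112929637, and the listed start site at chr12:112929495 on the minus strand was outside it. That site was inside an interval of the other 6 libraries. The gene as listed reaches further, to chr12:112929812, and this outer end was inside an interval of both KO libraries and of the other 6. WT and KO did not overlap, and the mean difference was 1038 bp.

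The bases just before the listed Jag2 start site are from RefSeq in GRCm38.p6 (chr12:112929496-112929745, minus strand, 5′ to 3′). They lie inside the gene as listed, and are shown because the edge of the KO peaks falls within them. Capitals mark the 109 bases inside the intervals of both KO libraries, and the 141 bases in lower case lay outside both.
Jag2: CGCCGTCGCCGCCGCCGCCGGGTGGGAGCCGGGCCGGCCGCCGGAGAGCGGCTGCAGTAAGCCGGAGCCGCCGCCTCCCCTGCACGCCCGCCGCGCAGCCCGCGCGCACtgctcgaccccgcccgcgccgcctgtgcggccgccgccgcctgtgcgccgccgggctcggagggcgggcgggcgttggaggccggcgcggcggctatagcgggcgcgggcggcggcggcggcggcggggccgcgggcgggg
G and C made up 87.2% of these bases, against a median of 55.6% over 21045 such stretches of protein-coding genes. Among the 163 start sites covered in both WT and neither KO library, whatever the LH libraries held, looked at after the Jag2 values were seen, the median was 57.6%, and among the 11619 covered by all 4 PR libraries it was 61.6%.

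Among 10829 genes with a start peak in all 4 PR libraries, 11 (0.102%) had one that was 2 or more times as wide in both WT as in both KO libraries. Jag2 was singled out for this width after its values were seen. A start site lay inside an interval of both WT libraries and of neither KO library for 1.3% of those covered in any PR library, and the reverse held for 0.0558%. No listed start site of the 7 Notch genes in the table was covered in both hCG and neither PMSG library (2.31% of start sites) or the reverse (0.395%). The part of the Jag2 peak that the KO lists lacked was weaker than the main summit where it was present. Its summits after the start had folds of 3.66 to 4.62 in hCG 1, 4.58 to 4.79 in hCG 2, 3.18 in PMSG 1 and 3.22 to 3.65 in PMSG 2, with a −log10 q of at most 41.3, 38.9, 14.2 and 16.9. In the PR libraries they had folds of 3.67 to 4.08 in WT 1 and 2.80 to 3.03 in WT 2, where the main summit before the start had 10.7 and 10.5. Their −log10 q was at most 31.7 in WT 1 and at most 12.4 in WT 2, where those nearest the start were at 10.03 and 10.05, and the lists held no value under 10. The main summit had 8.99 in KO 1 and 7.98 in KO 2, and its percentiles with the same number of peaks were 58.9 and 50.1 in WT and 52.7 and 52.6 in KO, which overlap. With the same number of peaks, which keeps or drops whole intervals, the width difference was 890 bp.

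Rbpj, on chromosome 5, encodes the DNA-binding partner of the cleaved receptor. With all peaks it was the only one of the 10 genes whose window was covered more in both PMSG libraries. The region at 55.4 kb after the listed start, inside the gene (chr5:53645473-53646224), had widths of 294 and 266 bp in hCG, 752 and 669 bp in PMSG, 325 bp in WT 1 and 150 bp in KO 2, and WT 2 and KO 1 had no peak there. Its percentiles with the same number of peaks were 5.56 and 1.74 in hCG and 58.8 and 64.6 in PMSG, the largest gap in favour of PMSG among the 58 regions around the 10 genes held by all 4 of those lists.

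On either side of that region lay the 2 PMSG-only regions of Rbpj, at 53.4 kb (chr5:53643672-53644086) with percentiles of 13.8 and 14.6, and at 61.2 kb (chr5:53651600-53651815) with 32.6 and 26.1. WT 1 held the former and no PR library held the latter. The hCG-only region of the gene lay 48.2 kb after the start (chr5:53638584-53638873), with percentiles of 28.1 and 32.3, and no PR library held it. These 4 neighbouring regions, all inside the gene, thus differed between hCG and PMSG, and no PR library held more than 2 of them. Outside the start, all 8 libraries held the region just after the gene at 67.8 kb and one further on at 81.9 kb.

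The start peak of Rbpj (chr5:53588923-53591281) ranked higher in PMSG. With the same number of peaks the percentiles were 27.3 and 26.5 in hCG, 45.0 and 52.2 in PMSG, 26.7 and 37.1 in WT and 31.6 and 56.8 in KO. The widths were 2314 and 2351 bp in hCG, 2027 and 2029 bp in PMSG, 2359 and 1817 bp in WT and 1794 and 1797 bp in KO. The hCG peaks were thus wider but ranked lower than the PMSG peaks, and WT lay just above KO in width.

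RBPJ binds DNA through a core of the letters TGGGAA, of which GTGGGAA is a longer form, so that every match of the longer form is also a match of the shorter. On either strand of the 250 bases before the start, TGGGAA was found for 21.1% and GTGGGAA for 5.31% of 21045 listed starts of protein-coding genes. Of the 8 listed starts of 7 of the Notch genes, the core was found for Hey2 and for both starts of Rbpj, and the longer form for Hey2 alone. Hes1, Hey1 and Heyl were not searched, because the table used here lists no start for them. The stretches before the start of Hey2 (chr10:30842784-30843033, minus strand) and before the earlier start of Rbpj (chr5:53590096-53590345, plus strand) are shown 5′ to 3′ from RefSeq in GRCm38.p6, because these genes are a target and the DNA-binding factor of the pathway; capitals mark the core on either strand (TTCCCA is its reverse complement).
Hey2: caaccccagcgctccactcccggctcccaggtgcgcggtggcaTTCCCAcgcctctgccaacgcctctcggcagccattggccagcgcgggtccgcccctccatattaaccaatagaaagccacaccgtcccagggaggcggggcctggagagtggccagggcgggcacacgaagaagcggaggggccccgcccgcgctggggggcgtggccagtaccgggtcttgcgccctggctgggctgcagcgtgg
Rbpj: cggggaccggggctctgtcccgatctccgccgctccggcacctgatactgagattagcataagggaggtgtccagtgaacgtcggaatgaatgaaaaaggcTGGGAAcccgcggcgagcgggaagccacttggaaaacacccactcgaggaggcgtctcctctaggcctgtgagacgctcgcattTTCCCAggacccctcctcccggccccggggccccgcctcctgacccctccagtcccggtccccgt
Both stretches lay wholly inside peaks of all 8 libraries.

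Other motifs were searched in the same 250 bases on both strands. The N-box of HES factors, CACNAG, was found before the starts of Notch1, Notch2 and Notch3 and before 35.9% of all listed starts. None of the 8 starts had the E-box CACGTG (6.70% of all), a palindromic progesterone response element ACANNNTGT (5.24%), the RUNX motif TGTGGT (12.2%), the NR5A motif AAGGTCA (3.63%), the AP-1 motif TGANTCA (6.17%) or the GATA motif AGATAA (8.84%). A match describes letters only, and the distal regions were not searched.

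Hes1, a repressor gene on chromosome 16 and a classical Notch target, had 11 regions, and all 11 were held by all 8 libraries. With all peaks presence therefore did not differ, but rank did. With the same number of peaks 8 of the 11 were held by all 8 libraries, and 1 weak region at the lower-coordinate end (chr16:30065082-30065569) was PMSG-only and KO-only. At -31.6 kb from the lower-coordinate end of the gene (chr16:30033266-30034309) the percentiles with the same number of peaks were 91.9 and 71.9 in hCG, 26.9 and 17.7 in PMSG, 82.4 and 86.5 in WT and 85.6 and 68.1 in KO. The widths there were 556 and 984 bp in hCG, 150 and 317 bp in PMSG, 529 and 450 bp in WT and 915 and 440 bp in KO. This was the largest rank gap in favour of hCG among the 58 shared regions, and only the PMSG libraries were low.

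Further regions around Hes1 ranked in opposite ways. At -40.4 kb (chr16:30024654-30025192) the percentiles were 95.6 and 94.8 in hCG and 78.9 and 78.6 in PMSG. At 16.4 kb (chr16:30081286-30082141) they were 3.29 and 5.97 in hCG and 31.2 and 31.8 in PMSG, and at 31.3 kb (chr16:30096137-30097186) 55.7 and 65.7 in hCG and 82.6 and 84.8 in PMSG. The distal regions at -31.6 and -40.4 kb were thus higher in hCG, and those at 16.4 and 31.3 kb were higher in PMSG.

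Between WT and KO, Hes1 had 2 of the 4 regions around the 10 genes that ranked higher in both WT libraries. At -17.7 kb (chr16:30047364-30047863) the percentiles were 86.0 and 88.9 in WT and 66.6 and 71.4 in KO. At 5.18 kb (chr16:30070077-30071005) they were 37.0 and 26.9 in WT and 17.8 and 23.2 in KO. The regions at 16.4 and 23.2 kb went the other way, with 10.5 and 4.57, and 9.48 and 18.4, in WT and 19.3 and 31.2, and 20.9 and 46.7, in KO.

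Hey1, a HES-related repressor gene on chromosome 3, had 7 regions, and all 8 libraries held 6 of them. A pair of regions on its lower-coordinate side ranked higher in hCG. At -33.3 kb (chr3:8629732-8630482) the percentiles with the same number of peaks were 74.8 and 78.6 in hCG and 31.1 and 36.5 in PMSG. At -27.5 kb (chr3:8635352-8636312) they were 87.0 and 84.3 in hCG and 51.1 and 40.9 in PMSG. In the PR libraries the same regions ranked between 56.8 and 87.2 and WT and KO overlapped. The peak at the higher-coordinate end of Hey1 (chr3:8666622-8668079) ranked at 56.1 and 57.5 in hCG and 77.7 and 75.6 in PMSG. The PMSG-only region, at -24.2 kb (chr3:8639088-8639295), was weak, with percentiles of 7.82 and 8.16 with all peaks, and no PR library held it.

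Hey2, on chromosome 10, had 5 regions. One of them, 17.4 kb after the start and beyond the end of the gene (chr10:30825179-30825525), was PMSG-only, with percentiles of 63.5 and 60.4 and widths of 153 and 184 bp. WT 1, WT 2 and KO 1 held it at 61.6, 51.3 and 43.3, and KO 2 did not. It was the best-ranked of the 5 PMSG-only regions around the 10 genes and remained PMSG-only with the same number of peaks. The region at 32.0 kb (chr10:30810319-30811210) ranked at 79.6 and 74.8 in hCG and 96.8 and 97.9 in PMSG with the same number of peaks, without overlap. The start interval of Hey2 spread over 2432 bp in WT 1, 2442 bp in KO 1 and 2417 bp in KO 2, and over 1200 bp in WT 2, 1343 and 1319 bp in hCG and 1059 and 1076 bp in PMSG, counting intervals within 1 kb of the start.

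Heyl, on chromosome 4, had 16 regions, 11 of them present in all 8 libraries, and no hCG-only or PMSG-only region with all peaks. Inside the gene at 13.9 kb from its lower-coordinate end (chr4:123246976-123247932) the percentiles with the same number of peaks were 75.6 and 70.3 in hCG and 27.4 and 20.7 in PMSG, with widths of 721 and 804 bp in hCG and 247 and 243 bp in PMSG. At -7.44 kb (chr4:123225859-123226367) they were 51.0 in both hCG libraries and 14.8 and 18.2 in PMSG. At -19.5 kb, in Nt5c1a (chr4:123213716-123214457), they were 85.7 and 93.1 in hCG and 53.7 and 66.8 in PMSG. The opposite held at 49.2 kb, at an end of Pabpc4 (chr4:123282437-123283161), with 68.1 and 50.9 in hCG and 93.1 and 87.2 in PMSG. The only WT-only region of Heyl (chr4:123237503-123237637) lay inside the gene and had percentiles of 1.32 and 1.59.

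**Figure D4:**
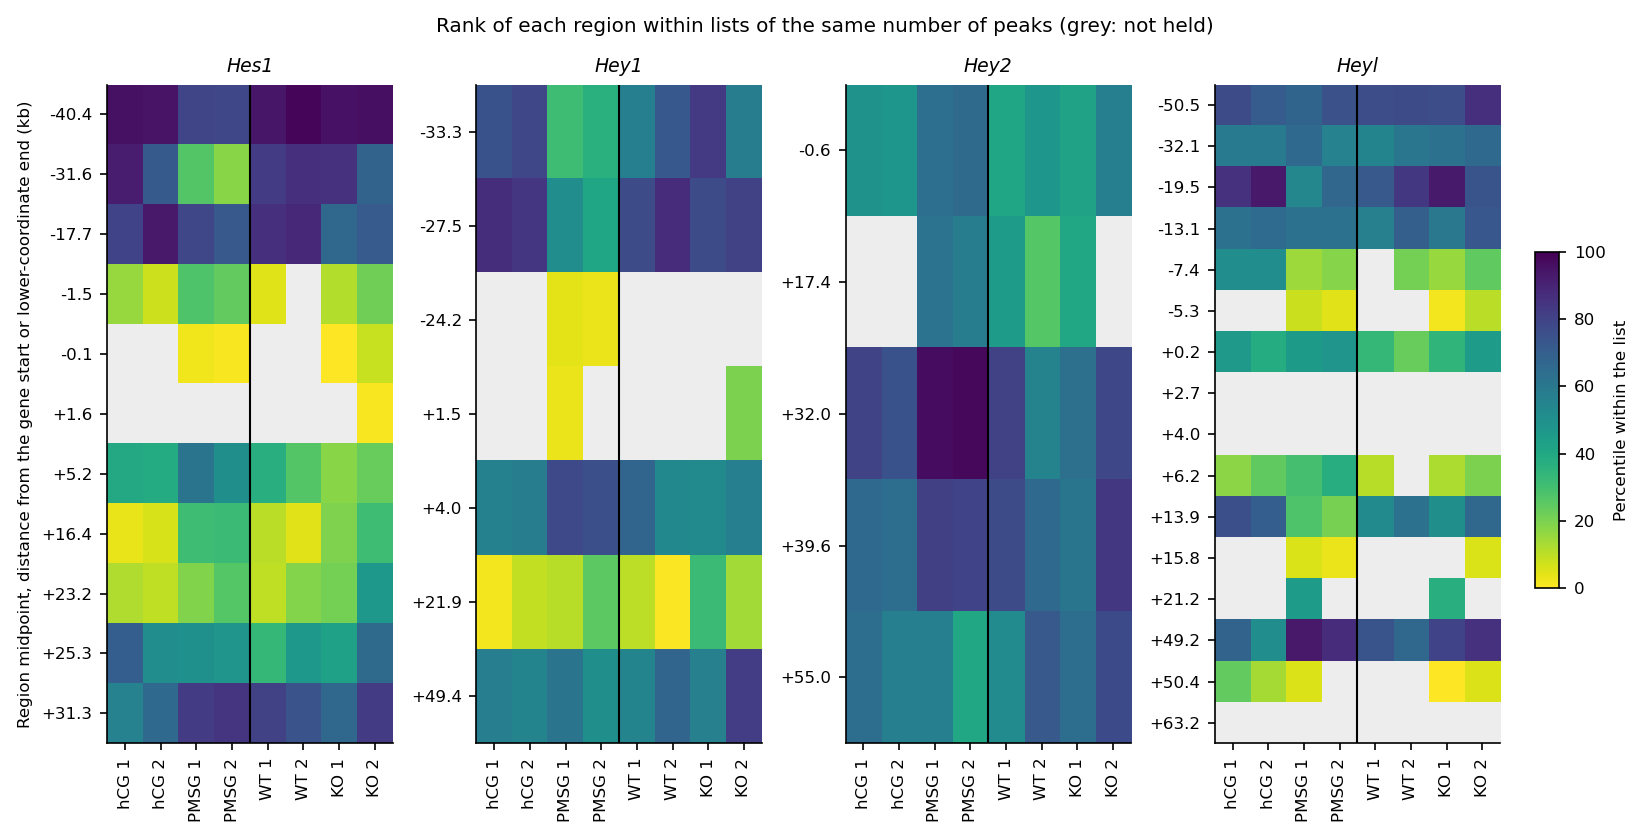
Percentile of each region (colour, 100 is the best fold within the list) around Hes1, Hey1, Hey2 and Heyl in lists of the same number of peaks, with 1 column per library and 1 line per region, ordered by distance in kb from the start (Hey2) or from the lower-coordinate end (Hes1, Hey1, Heyl). Grey means that the list held no peak; the Hes1 region at -31.6 kb is dark in hCG, WT and KO and light only in the 2 PMSG libraries.

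Taking all 58 regions around the 10 genes that the 4 LH lists shared at the same number of peaks, 26 (44.8%) ranked higher in both PMSG libraries, as did 45.5% of all shared regions. In 19 (32.8%) both hCG libraries ranked higher, against 27.8% of all shared regions, and in 13 the groups overlapped. These shares were near the background. Hes1 had 4 regions higher in hCG and 5 higher in PMSG, Heyl had 4 and 2, and Rbpj had none higher in hCG and 3 higher in PMSG.

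The length of sequence covered by peaks was greater in hCG at nearly every one of these genes, as it was in the genome. Both hCG libraries covered more than both PMSG libraries at 9 of the 10 genes, against 81.3% of gene windows with a peak. The ratio of the means was largest at Notch3, 2.10, where the hCG libraries covered 6866 and 6922 bp and the PMSG libraries 3215 and 3366 bp. At Notch1 the hCG libraries covered 7663 and 7923 bp and the PMSG libraries 4861 and 5210 bp, and at Notch2 they covered 10495 and 10056 bp against 6299 and 6925 bp, ratios of 1.55 in each case. With the same number of peaks the ratio was 1.52 at Notch3, where the hCG libraries covered 4129 and 5898 bp, and 1.28 at Notch2. The Notch3 difference then went from 3603.5 to 1723 bp, and it was 134 bp with the best 20000 peaks. The median ratio over the 10 genes was 1.25 and that over all gene windows 1.28. Rbpj went the other way, with 4027 and 3655 bp in hCG and 4134 and 4113 bp in PMSG, as did 6.96% of gene windows. Its hCG minus PMSG difference was -282.5 bp, against -468.5 bp without hCG 1 and -96.5 bp without hCG 2. With the same number of peaks hCG was above at 8 of the 10 genes (74.5% of all windows), Rbpj was again above in PMSG (9.34%), and Jag1 overlapped.

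**Figure D5:**
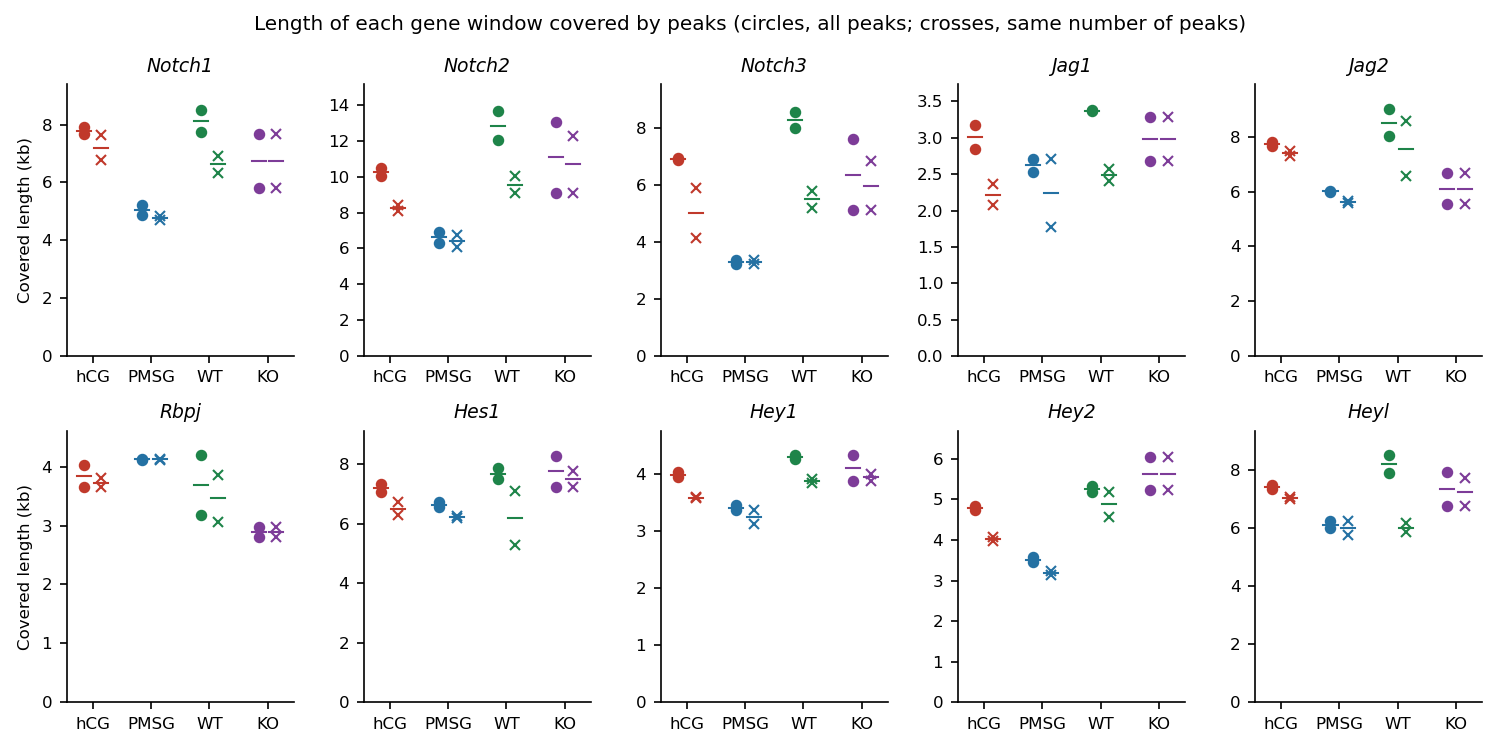
Length in kb (vertical axis) of each gene body with 50 kb on either side that was covered by peaks in each library, with all peaks (circles) and with lists of 1 length (crosses), and bars at the mean of 2 libraries. The hCG circles lie above the PMSG circles in every panel but that of Rbpj, and at Heyl, Hes1, Hey2 and Jag1 the KO crosses lie above the WT crosses.

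Few regions of these genes separated WT from KO. Of the 116 regions of the PR libraries, 84 (72.4%) were held by all 4, against 53.5% of all regions. There were 4 WT-only regions (3.45%), against 12.1% both of all regions and of those near protein-coding genes, and no KO-only region, against 0.0802% and 0.0685%. The 4 were 2 at Notch1 and 1 each at Notch3 (chr17:32075289-32075424) and Heyl, all with percentiles under the middle of the list, and 3 of the 10 genes had one, against 58.4% of genes; none had a KO-only region, against 0.521%. The count depended on single libraries: it was 16 without WT 1, 7 without WT 2 and 13 without KO 1, and without KO 2 there was 1 KO-only region. At equal list length none of 98 regions was WT-only (4.26% of all regions and 4.14% of those near protein-coding genes) and 8 (8.16%) were KO-only (4.15% and 4.24%). Then 5 of the 10 genes had a KO-only region (24.7% of genes) and none a WT-only region (24.3%), and all 4 lists held 62 of the 98 (63.3%, against 56.3%). All 8 had a peak in both WT libraries that ranked below the best 55654.

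Covered length was also compared between WT and KO. Both WT libraries covered more than both KO libraries at Notch1, Notch3, Jag1, Jag2 and Rbpj, 5 of the 10 genes, against 65.6% of gene windows, and both KO libraries covered more at none, against 0.915%. Without KO 1 the count was 9, and KO 1 and KO 2 themselves differed, for example at Notch2 with 13065 and 9103 bp. At Jag2 the WT libraries covered 9011 and 8028 bp and the KO libraries 6667 and 5549 bp, the largest ratio in this experiment, 1.39. At equal list length WT was above at Rbpj alone (27.9% of windows) and KO at Jag1, Hes1, Hey2 and Heyl (11.5% of windows). Of 62 regions shared by the 4 PR lists at that number, 16 (25.8%) ranked higher in both KO libraries and 4 (6.45%) in both WT libraries, against 19.9% and 11% of all shared regions. The list of KO 2 was the shortest. Without KO 2 WT was above at 5 genes and KO at 2, and WT minus KO went from 1914.5 to 674.5 bp at Notch3, from 1390.5 to 457 bp at Notch1, from 395 to 91.5 bp at Jag1 and from 1759 to -222 bp at Notch2. At Jag2 it went from 2411.5 to 1852.5 bp.

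Most hCG-only regions were open in the PR mice, all of which are described as treated with hCG. Of the 13 hCG-only regions, 8 were held by all 4 PR libraries, against 40.7% of all hCG-only regions, and 1 by none of them, against 7.16%. Of the 5 PMSG-only regions, none was held by all 4 PR libraries, against 13.2%, and 2 were held by none, against 19.8%. Both KO libraries held 8 of the 13 hCG-only regions and both WT libraries held 9.

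A wider list of 45 pathway genes, which covers further receptors and ligands, the glycosyltransferases that modify the receptor, the proteases that cleave it, RBPJ cofactors, regulators of ligand and receptor turnover, and other HES genes, had 638 regions. Among its 545 regions in the LH libraries, 98 (18.0%) were hCG-only and 28 (5.14%) PMSG-only, close to the 17.6% and below the 10.3% of all regions. At equal list length the counts were 68 (13.8%) and 43 (8.72%) of 493, against 15.3% and 13.4% of all regions. All 45 genes had a larger covered length in both hCG than in both PMSG libraries with all peaks, against 81.3% of all gene windows, and 41 did at equal list length, against 74.5%. All 45 had regions, between 7 and 49 each.

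The counts per gene stand beside the number of regions in each window, and 17.6% of all regions were hCG-only. Maml2, a coactivator that joins the RBPJ complex, had the most regions of the 45 in the LH libraries, 40, with 10 hCG-only and 4 PMSG-only. Numb, which restrains Notch signalling, had 7 hCG-only and no PMSG-only among 18. Spen, a corepressor partner of RBPJ, had 6 and 1 among 18. Of the gamma-secretase genes, whose products cut the receptor within the membrane, Psen2 had 3 hCG-only and 2 PMSG-only regions of 19. At equal list length Psen2 had 1 and 4 of 16. Aph1b had 5 hCG-only regions of 11 and Aph1c had 4 of 9, and neither had a PMSG-only region. Aph1b and Aph1c are near copies and neighbours whose windows share regions. Tle1, a corepressor used by HES proteins, had 5 hCG-only and 2 PMSG-only regions of 11. Mib1, a ubiquitin ligase for ligands, had 4 hCG-only regions of 12, and Dtx2 had 4 hCG-only and 1 PMSG-only of 16. Lfng, Maml3, Numbl, Itch, Hes5 and Bhlhe40 had 3 hCG-only regions each, out of 7 at Itch to 36 at Maml3. Lfng and Maml3 also had 2 PMSG-only regions each. With all peaks, Adam17, a protease that cuts receptors at the cell surface, was the only gene of the 45 with 3 PMSG-only regions apart from Maml2 with 4.

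In the PR libraries 65 of the 604 regions of the wider list (10.8%) were WT-only, against 12.1% of all regions, and none was KO-only. Genes with 3 or more included Maml2 with 5 of 47, Tle1 with 5 of 15, Maml3 with 4 of 45, and Dlk1, Pofut1, Mib1 and Dtx3 with 3 each of 9, 11, 13 and 11. At equal list length 20 of 490 (4.08%) were WT-only and 24 (4.90%) KO-only, against 4.26% and 4.15% of all regions. The WT-only count was 119 without WT 1, 101 without WT 2 and 115 without KO 1.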

How the data were processed

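The 8 mouse ATAC-seq libraries went through Bowtie2 and MACS2, with mm10 as the build, per the submitters' processing notes. Versions, filters and any shift for the Tn5 cut are not given in the sources used here. The authors deposited 1 peak list per library, called separately. Column 7 of the deposited lists is the peak's fold enrichment, a ratio, and is the authors' value. Columns 8 and 9 of the deposited lists hold −log10 p and −log10 q, the latter at 10 or more, and the deposited score was not used.

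Summits that shared an interval were counted as 1 interval with its best fold. Intervals on chromosomes 1 to 19 and X were merged over the 8 libraries into regions (overlap of 1 bp or more), and ranks were taken within a list. Genes, starts and the 250 bases before a start came from RefSeq tables of GRCm38.p6. As a check of the build, peaks covered 26.0% to 27.8% of gene ends per library, and 2.02% to 3.10% after a shift of 100 kb. Exons and introns are not in these tables. Distances run from the listed start (the lower-coordinate end for Hes1, Hey1 and Heyl) to the middle of a region, negative before it.

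No test was fitted. Libraries are pools of animals, and no p-value is given. Alternatives were the same number of peaks, the best 20000 peaks, a −log10 q of 20 or more, the gene body alone, flanks of 10 kb, regions merged within an experiment, coverage of 50% of a region, and each library left out. All 10 genes are named, with up to 3 best-ranked group-only regions of each kind per gene, genes of the wider list with 3 or more regions called for 1 group (some are not reported here), and regions with the largest rank gaps, which were chosen after their values were seen. The genes, the wider list, the motifs and the marker lists (granulosa, theca, endothelium, pericyte and smooth muscle, immune, oocyte) were chosen with earlier results of these data known. The counting was tested on simulated data. Python 3.11.15, pandas 2.3.3, numpy 2.4.6 and matplotlib 3.10.9 were used.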

Additional observations from a re-analysis of the deposited data

How the results depend on the processing

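Counts of regions called for 1 group depended on list length, window, the coverage asked of a peak and single libraries, and the cause was not tested. For the 10 genes, hCG-only regions (13) were 5 in the gene body alone, 6 with flanks of 10 kb and 20 where peaks had to cover 50% of a region; they were 11 with the best 20000 peaks or a −log10 q of 20 or more, and 14 to 19 with a library left out. PMSG-only regions (5) were 9 at equal list length (the same number of peaks) and with a −log10 q of 20 or more, 2 with the best 20000 peaks and in the body, and 3 with flanks of 10 kb. WT-only regions (4) were 0 with the same number and the best 20000, 7 with a −log10 q of 20 or more, 1 in the body, 2 with flanks of 10 kb, 8 with 50% coverage and 5 to 16 with a library left out. KO-only regions (0) were 8 with the same number and 0 to 1 with a library left out. For the wider list, hCG-only regions (98) were 27 with the best 20000, 46 in the body and 56 with flanks of 10 kb, and PMSG-only regions (28) were 43 with the same number, 18 with the best 20000, 15 in the body and 18 with flanks of 10 kb. Its WT-only regions (65) were 20, 5, 31 and 37 under the same 4 settings and 86 to 119 with a library left out, and its KO-only regions (0) were 24 with the same number, 5 with the best 20000, 1 with 50% coverage and 0 to 4 with a library left out. Of the 10 genes, those covered more in both PMSG libraries (1) were 0 with the best 20000. Those covered more in both WT libraries (5) were 1 with the same number and 5 to 9 with a library left out. Those covered more in both KO libraries (0) were 4 with the same number, 1 with the best 20000, 1 in the body and 0 to 2 with a library left out.

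Where the groups had not overlapped with all peaks, the difference in covered length changed sign in 7 cases: for hCG minus PMSG at Jag1 it was -22.5 bp with the same number and at Hey2 -877.5 bp with the best 20000. For WT minus KO with the same number it was -110.5 bp at Notch1, -482 bp at Notch3 and -487 bp at Jag1, and at Notch1 it was -220.5 bp in the body and -73.5 bp with flanks of 10 kb. WT minus KO also changed sign under 1 or more settings at Notch2, Hes1, Hey1, Hey2 and Heyl, where the groups had overlapped, for example with the same number to -1124 bp at Notch2 and -1235 bp at Heyl. The width difference at the Jag2 start, WT minus KO, was 890 bp with the same number and with intervals whose −log10 q was 20 or more (both keep whole intervals, the weak summits included), and 946.5 to 1129.5 bp with a library left out; these settings were chosen after seeing the data, and the best 20000 peaks held none at this start. No paired analysis was possible because the labels tie no replicate number across the groups and no test was fitted. Peak lists carry no read numbers, so a missing peak is not evidence of closed chromatin.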
